A study of Mus musculus with 16 samples.

Results

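Known target genes of the transcription factor p53, without Cdkn1a, were followed in tumour-bearing lungs of C57BL/6 mice by bulk RNA sequencing. The members were 35 gene symbols with established roles in feedback on p53, growth arrest, cell death, metabolism and DNA repair. Of these, 34 had a row among the 30095 genes of the table, and all 34 passed the filter on low values. Lungs carried HKP1 tumours and received 0, 4 or 8 Gy of radiation together with anti-PD-1, an antibody that blocks a checkpoint receptor of T cells, or control IgG. The groups comprised at 0 Gy 2 libraries of anti-PD-1 and 3 of IgG, at 4 Gy 3 of anti-PD-1 and 2 of IgG, and at 8 Gy 3 of each. Each of these 16 libraries came from a pool of 3 to 4 mice, and lungs were taken 24 to 48 hours after irradiation. HKP1 is a mouse lung adenocarcinoma line that has lost p53.

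p53 is held at a low level in resting cells by Mdm2, a ubiquitin ligase that p53 itself induces. Double-strand breaks made by ionizing radiation activate the kinases Atm and Chek2, p53 escapes degradation, and it binds response elements near its target genes. The targets stop the cell cycle, trigger apoptosis, support repair or switch p53 off again, and in the lung this response is known from epithelial, endothelial and immune cells.

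Values are CPM, read counts scaled to the total of each library, and 1 read was worth 0.0155 to 0.0418 CPM, depending on the depth of the library. Differences are log2 fold changes of CPM + 0.5, given with their standard error (SE), and this offset makes the change of a low gene look smaller than it is. They come from limma, fitted to all 16 libraries over 17546 genes, with Benjamini-Hochberg adjusted p-values and a threshold of 0.05. A gene past the threshold is said here to have passed the test, to have risen or to have fallen. Counts at an unadjusted p under 0.05 stand without the share of all genes at that cut and are not read as results. Counts from fits that left out 1 library also stand without the share of all genes in the same fit. Among the anti-PD-1 libraries at 4 Gy, replicates 2 and 3 stood apart and are called the 2 outlying libraries. They lay at -81.5 and -98.3 on the first principal component, against -46.8 to 51.9 for the other 14 libraries. They also had the most genes without reads, 6086 and 5315, against 2273 to 3851 in the other 14. Depth was low in both, as 1 read was worth 0.0418 and 0.0319 CPM, against 0.0155 to 0.0334 CPM in the other 14. Why they stood apart was not tested. All 8 markers of club cells, 8 of alveolar type 2 cells and 6 of endothelium had reads in every library. Whether the pools of 1 group hold different mice is not given in the labels, and p-values therefore reflect only how these libraries vary. Running sheet numbers were 26 to 36 for irradiated lungs and 13 to 17 for lungs at 0 Gy. If the numbers stand for separate preparations, that and irradiation cannot be told apart. In bulk tissue, fewer cells of a type and less RNA per cell cannot be told apart either.

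The p53 response element is a pair of adjoining decamers, 10 bases each. RefSeq promoters of build GRCm38.p6, each 300 bases long (250 before and 50 after a transcription start), were given for 26 of the members in 36 windows. An element without a spacer and with at most 3 mismatches outside the fixed C and G of the decamer cores stood in 6 of the 36 windows (16.7%), against 453 of all 32851 windows (1.38%). Such an element reads alike on both strands, so both are covered by the search. Both windows of Aen hold the same element. Counted by gene, 5 of the 26 members had an element (19.2%), against 1.63% of all genes with a window. The members were picked as known p53 targets, so a higher share among them is not an independent result. A single decamer without mismatch stood in 27.8% of the windows of members and 8.36% of all windows, and may overlap the full element. The 5 members with an element are shown because they span those that rose after irradiation (Ccng1, Bbc3 and Aen) and those that did not pass the test at either dose (Sesn1 and Tigar). Capitals mark the element, with 5 flanking bases on each side, 5′ to 3′ on the strand of the gene.
Ccng1 (chr11:40755462-40755481, minus strand): aggccAGACCTGCCCGGGCAAGCCTtggca
Bbc3 (chr7:16309486-16309505, plus strand): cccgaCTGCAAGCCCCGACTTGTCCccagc
Aen (chr7:78895937-78895956, plus strand): aagccGGGCTTGTCCGGGCAAGGAGcttcc
Sesn1 (chr10:41887266-41887285, plus strand): ccttcAAGCTTGTTTTTGCTGGCCTggtcc
Tigar (chr6:127109746-127109765, minus strand): gcggcGGTCTAGCTCTGGCAAGACTccagg

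The Ccng1 element had 1 mismatch and the other 4 had 3 each. Ccng1 also had the lowest adjusted p of the members at 8 Gy against 0 Gy, and its promoter from 250 to 51 bases before the start is shown for that reason, with the element in capitals at position -195.
Ccng1 promoter: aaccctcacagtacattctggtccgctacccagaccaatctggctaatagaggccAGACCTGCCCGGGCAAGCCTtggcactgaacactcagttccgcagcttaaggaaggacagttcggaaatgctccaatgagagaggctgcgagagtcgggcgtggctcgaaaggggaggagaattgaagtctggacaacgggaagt

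In the other 21 matched members no element of this form lies in the window, which says nothing of elements elsewhere, such as in introns. A match is a run of letters and was not tested for binding here.

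After 8 Gy, 7 of 34 members rose, led by the cyclin gene Ccng1 and the death receptor gene Eda2r, while 4 fell, led by the repair gene Ddb2. After 4 Gy, 10 rose and 2 fell, led by Phlda3, an inhibitor of Akt signalling, and Gdf15, a secreted stress cytokine. At 8 Gy the 7 that rose compare with 4.68% of all genes tested that rose, and the 4 that fell with 16.1%. At 4 Gy the 10 that rose compare with 5.33% of all genes, and the 2 that fell with 12.2%. The 2 counts of falls are thus not above the background. The median log2 fold change of the 34 members was 0.11 at 8 Gy and 0.11 at 4 Gy, against -0.09 and -0.14 over all genes tested. The count of rises at 8 Gy was 4 in the additive model and 4 without anti-PD-1 0 Gy replicate 1. At 4 Gy it was 2, with 0 falls, without the 2 outlying libraries, where 0.331% of all genes rose and 0.188% fell. It was 6, with 0 falls, without IgG 4 Gy replicate 2. Leaving out anti-PD-1 4 Gy replicate 1 gave 6 falls at 4 Gy, and 1 fall was left without IgG 4 Gy replicate 1, either outlying library, either anti-PD-1 library at 0 Gy or IgG 0 Gy replicate 1 or 2. Both comparisons share the 5 libraries at 0 Gy, so their calls are not independent of each other. Setting the library medians equal moved the median of all genes at 4 Gy to -0.03 and its calls to 1275 higher and 798 lower, in place of 935 and 2141. At 8 Gy it moved the median to 0.02 and the calls to 1568 higher and 1915 lower, in place of 822 and 2818, and quantile normalization gave 1421 and 1764. Under quantile normalization 4 Gy had 1343 higher and 1061 lower. With either scaling Sesn2 also rose at both doses, Ccng1 and Mdm2 at 4 Gy and Tigar at 8 Gy.

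Set against 4 Gy, 8 Gy had 4 members higher (17% of all genes) and 10 lower (17.2%), with a median of -0.08 for the members and 0.06 for all genes. Read against these shares, the 4 of 34 that were higher are not above the background. The 10 that were lower exceed their share, but that excess was not tested and the count depended on single libraries. The counts were 0 higher and 5 lower without the 2 outlying libraries, against 2.57% and 9.97% of all genes. The higher count was 1 without IgG 4 Gy replicate 2, and 2 without IgG 4 Gy replicate 1, anti-PD-1 4 Gy replicate 3, IgG 8 Gy replicate 2 or 3, or anti-PD-1 8 Gy replicate 1. The lower count was 6 without IgG 4 Gy replicate 1. Of the 34 members, 13 passed the test in none of the 3 dose comparisons. The libraries of the doses did not overlap in 5 members at 8 Gy against 0 Gy (6.45% of all genes), in 6 at 4 Gy against 0 Gy (5.96%) and in 5 at 8 Gy against 4 Gy (12.7%). Cdkn1a, the cell cycle inhibitor p21 and best known target, is not a member. It rose by 1.63 ± 0.13 at 8 Gy and 1.81 ± 0.13 at 4 Gy, beyond every member except Gdf15 at 4 Gy.

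**Figure D1:**
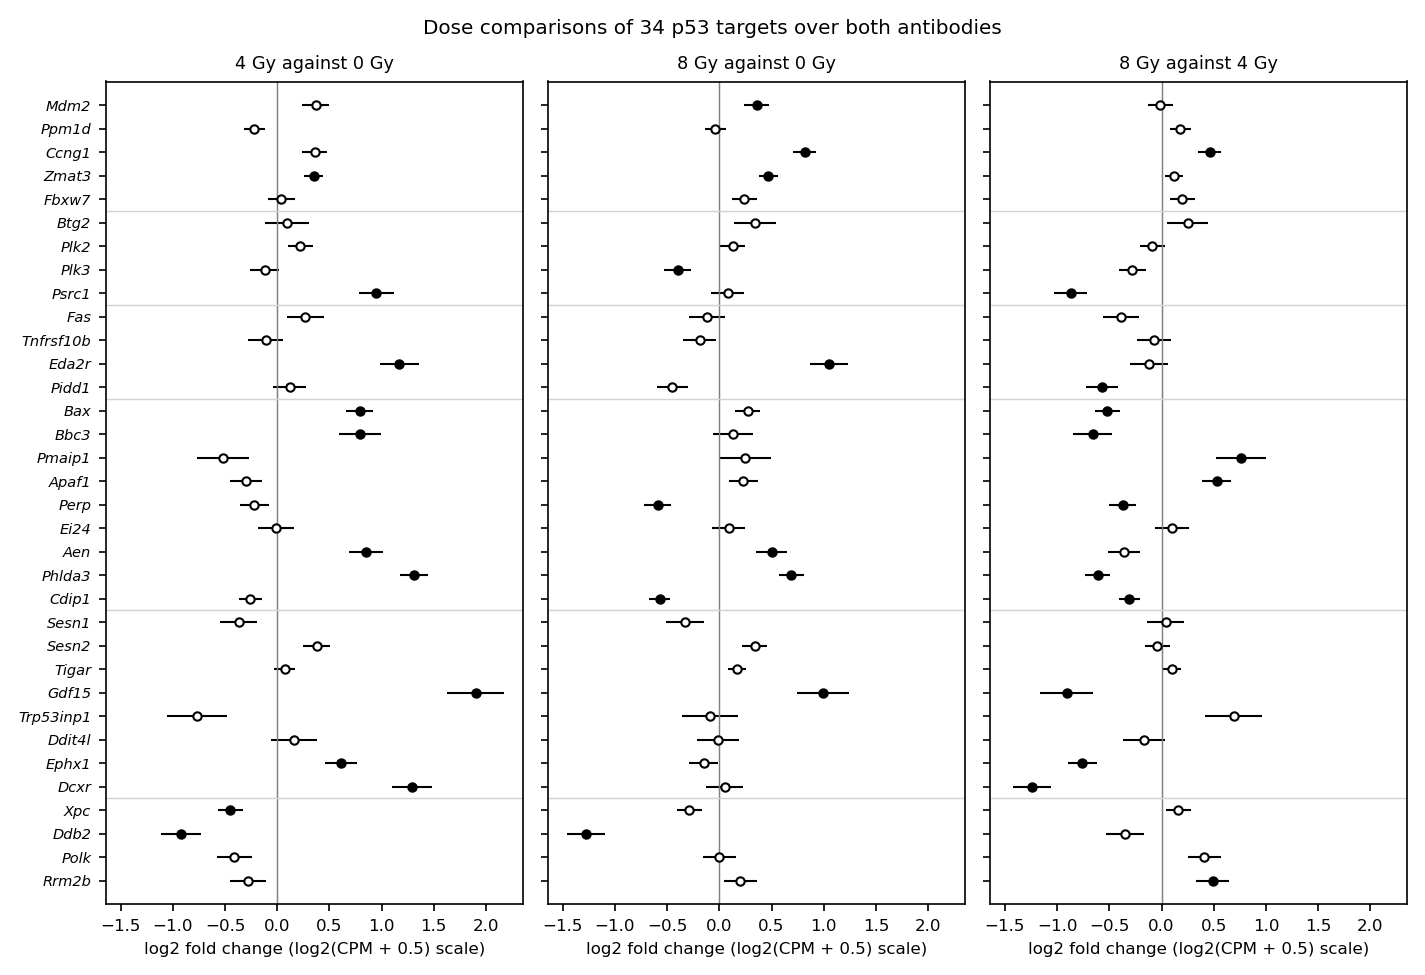
Log2 fold changes (x axis, log2(CPM + 0.5) scale) of the 34 members (y axis, grouped by role with grey lines) in the 3 dose comparisons over both antibodies, with bars of 1 SE and filled points where the adjusted p was under 0.05. Ccng1, Eda2r and Phlda3 lie to the right of 0 at both doses, while Dcxr, Psrc1, Bax and Bbc3 lie far to the right at 4 Gy and near 0.05 to 0.27 at 8 Gy.

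Of the 5 members grouped here under feedback on p53 (Mdm2, Ccng1, Zmat3, Ppm1d and Fbxw7), 3 rose at 8 Gy (4.68% of all genes). At 4 Gy 1 of 5 rose (5.33%), and none fell at either dose. Ccng1 (mm10, chromosome 11, 40748552 to 40755311, minus strand) encodes cyclin G1, which brings a phosphatase to Mdm2. It had 49 and 54.6 CPM (anti-PD-1) and 48.4, 63.98 and 55.99 CPM (IgG) at 0 Gy, 71.3, 60.3 and 61.1 CPM (anti-PD-1) and 74.2 and 74.6 CPM (IgG) at 4 Gy, and 107, 90.7 and 78.7 CPM (anti-PD-1) and 83.6, 102 and 114 CPM (IgG) at 8 Gy. The lowest 8 Gy library exceeded the highest library at 4 Gy and at 0 Gy, while 4 Gy and 0 Gy overlapped. The log2 fold change was 0.82 ± 0.11 (adjusted p = 0.000516) at 8 Gy against 0 Gy and 0.46 ± 0.11 (adjusted p = 0.00801) at 8 Gy against 4 Gy, but 0.36 ± 0.12 (adjusted p = 0.0507) at 4 Gy against 0 Gy. Without the 2 outlying libraries the difference between the doses was 0.38 (adjusted p = 0.0893). Zmat3, a zinc finger protein that binds RNA (mm10, chromosome 3, 32334792 to 32366014, minus strand), had 19.8 and 21.05 CPM (anti-PD-1) and 20.1, 24.5 and 22.2 CPM (IgG) at 0 Gy, 25.3, 24.3 and 25.04 CPM (anti-PD-1) and 31.8 and 28.4 CPM (IgG) at 4 Gy, and 28.5, 26.2 and 28.05 CPM (anti-PD-1) and 30.4, 31.7 and 33.9 CPM (IgG) at 8 Gy. All 8 Gy libraries lay above all 0 Gy libraries, and the IgG libraries were the higher ones at 4 and 8 Gy. Its log2 fold change was 0.47 ± 0.09 (adjusted p = 0.0024) at 8 Gy and 0.35 ± 0.09 (adjusted p = 0.0238) at 4 Gy. The call at 4 Gy ended without the 2 outlying libraries (0.37, adjusted p = 0.121), in a fit of the compared groups alone (0.35, adjusted p = 0.0914) and in 5 of 16 fits that left out 1 library, namely IgG 0 Gy replicate 1, anti-PD-1 0 Gy replicate 1 or 2, or IgG 4 Gy replicate 1 or 2, with adjusted p up to 0.121.

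Mdm2 (mm10, chromosome 10, 117688875 to 117710758, minus strand) had 39.2 and 54.4 CPM (anti-PD-1) and 41.2, 41.1 and 53.5 CPM (IgG) at 0 Gy, 75.3, 55.3 and 70.8 CPM (anti-PD-1) and 56.5 and 48.02 CPM (IgG) at 4 Gy, and 56.2, 63.7 and 51.5 CPM (anti-PD-1) and 56.04, 61.7 and 63.9 CPM (IgG) at 8 Gy. Both anti-PD-1 0 Gy replicate 2 and IgG 0 Gy replicate 3 reached the range of the irradiated libraries. The difference from 0 Gy was 0.36 ± 0.12 (adjusted p = 0.0489) at 8 Gy and 0.37 ± 0.13 (adjusted p = 0.0591) at 4 Gy, of nearly the same size, with 8 Gy past the threshold. That call was lost with no filter on low values, with the compared groups alone, in the additive model and in 11 of 16 fits that left out 1 library and was kept only without IgG 0 Gy replicate 3, anti-PD-1 0 Gy replicate 2, anti-PD-1 4 Gy replicate 1 or 2, or anti-PD-1 8 Gy replicate 3. Over all alternatives its adjusted p ran between 0.0113 and 0.232, and the log2 fold change between 0.25 and 0.48. Ppm1d, a phosphatase that reverses damage signalling, lay between 13.4 and 19.4 CPM over the 16 libraries. Fbxw7, the substrate adaptor of a ubiquitin ligase for cyclin E, lay between 15.8 and 24.8 CPM. Neither passed the test at any dose.

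Of the 4 members of growth arrest and the cell cycle, Psrc1 rose at 4 Gy and Plk3 fell at 8 Gy. Psrc1, which encodes a microtubule-binding protein (mm10, chromosome 3, 108383839 to 108388231, plus strand), had 9.45 and 8.10 CPM (anti-PD-1) and 10.2, 5.85 and 9.07 CPM (IgG) at 0 Gy, 22.6, 19.4 and 23.3 CPM (anti-PD-1) and 15.1 and 11.2 CPM (IgG) at 4 Gy, and 7.81, 12.6 and 11.2 CPM (anti-PD-1) and 8.78, 7.38 and 7.15 CPM (IgG) at 8 Gy. All 4 Gy libraries lay above all 0 Gy libraries, and those with anti-PD-1 were the highest of the 16. The difference was 0.95 ± 0.17 (adjusted p = 0.00978) at 4 Gy against 0 Gy, 0.08 ± 0.16 (adjusted p = 0.774) at 8 Gy against 0 Gy and -0.87 ± 0.16 (adjusted p = 0.00198) at 8 Gy against 4 Gy. The rise at 4 Gy was 0.98 without the 2 outlying libraries, with an adjusted p of 0.0736. Plk3, a stress-responsive kinase of the polo family, had 37.2 and 35.8 CPM (anti-PD-1) and 33.9, 28.3 and 37.1 CPM (IgG) at 0 Gy, 38.1, 34.8 and 44.4 CPM (anti-PD-1) and 28.3 and 23.96 CPM (IgG) at 4 Gy, and 19.2, 27.8 and 30.4 CPM (anti-PD-1) and 30.1, 27.2 and 24.3 CPM (IgG) at 8 Gy. The 8 Gy libraries overlapped those at 0 Gy, where 4 of 5 stood above them all. Its fall at 8 Gy was -0.40 ± 0.13 (adjusted p = 0.0431), a call lost in 10 of 16 fits that left out 1 library, and kept only without IgG 0 Gy replicate 2, IgG 8 Gy replicate 1, anti-PD-1 8 Gy replicate 3 or any of the anti-PD-1 4 Gy libraries. Its adjusted p ran between 0.0235 and 0.118, and equal library medians, quantile normalization, no filter on low values, the compared groups alone and the additive model each ended the call. Plk3 shares 84 exonic bases with Tctex1d4 on the other strand. Btg2, an antiproliferative gene, ranged widely within doses, between 52.3 and 142 CPM. Plk2, another kinase of the polo family, lay between 17.7 and 30.9 CPM, and neither passed the test.

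Of the 4 members of the death receptor branch, Eda2r rose at both doses and Pidd1 was lower at 8 Gy than at 4 Gy. Eda2r (mm10, chromosome X, 97333840 to 97377216, minus strand) encodes a receptor for ectodysplasin A2 of the tumour necrosis factor receptor family. It had 1.07 and 1.33 CPM (anti-PD-1) and 0.790, 0.601 and 1.12 CPM (IgG) at 0 Gy, 2.45, 2.38 and 2.55 CPM (anti-PD-1) and 3.88 and 2.87 CPM (IgG) at 4 Gy, and 3.04, 3.05 and 2.53 CPM (anti-PD-1) and 1.47, 2.52 and 3.45 CPM (IgG) at 8 Gy. Every irradiated library lay above every library at 0 Gy, and the doses overlapped. The rise was 1.05 ± 0.18 (adjusted p = 0.002) at 8 Gy and 1.17 ± 0.19 (adjusted p = 0.00618) at 4 Gy, and the difference between the doses was -0.12 ± 0.18 (adjusted p = 0.631). Without the 2 outlying libraries the value at 4 Gy stayed 1.17 while its adjusted p was 0.0598. Eda2r was also the lowest member per length, with a median of 0.421 CPM per kilobase of exon.

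Pidd1, a scaffold that activates caspases and inflammatory signalling after DNA damage, had 14.8 and 13.7 CPM (anti-PD-1) and 16.5, 10.4 and 17.2 CPM (IgG) at 0 Gy, 18.1, 15.6 and 16.7 CPM (anti-PD-1) and 17.5 and 11.95 CPM (IgG) at 4 Gy, and 9.61, 12.7 and 12.2 CPM (anti-PD-1) and 11.1, 8.96 and 8.29 CPM (IgG) at 8 Gy. The highest libraries were at 4 Gy and the lowest at 8 Gy, and the doses overlapped. It stood -0.57 ± 0.15 (adjusted p = 0.0135) at 8 Gy against 4 Gy, and -0.45 ± 0.15 (adjusted p = 0.0549) at 8 Gy against 0 Gy. The first ended without the 2 outlying libraries (-0.62, adjusted p = 0.0582) and without IgG 4 Gy replicate 1, with an adjusted p of at most 0.0836 over the alternatives. Fas, the receptor of Fas ligand, lay between 9.38 and 24.1 CPM, and Tnfrsf10b, the death receptor for TRAIL, between 20.8 and 41.0 CPM. Neither passed the test: at 8 Gy against 0 Gy Fas stood at -0.12 ± 0.17 (adjusted p = 0.65) and Tnfrsf10b at -0.19 ± 0.16 (adjusted p = 0.453).

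The branch of mitochondrial apoptosis and other death genes had 9 members with a row. At 4 Gy, 4 of them rose (Phlda3, Bax, Aen and Bbc3) and none fell. At 8 Gy, Phlda3 and Aen rose while Cdip1 and Perp fell. Phlda3, whose protein competes with Akt for membrane lipids (mm10, chromosome 1, 135766119 to 135769136, plus strand), had 22.1 and 16.9 CPM (anti-PD-1) and 27.6, 18.9 and 24.6 CPM (IgG) at 0 Gy, 59.99, 80.1 and 81.9 CPM (anti-PD-1) and 37.1 and 40.6 CPM (IgG) at 4 Gy, and 33.5, 37.1 and 38.3 CPM (anti-PD-1) and 35.96, 31.96 and 31.9 CPM (IgG) at 8 Gy. Irradiated libraries of either dose lay above all libraries at 0 Gy. The mean was 34.8 ± 2.73 CPM at 8 Gy (SD, n = 6) against 22.0 ± 4.28 CPM at 0 Gy (n = 5), and at 4 Gy it was 59.9 ± 21.1 CPM (n = 5). Its rise was 0.69 ± 0.12 (adjusted p = 0.00211) at 8 Gy and 1.31 ± 0.13 (adjusted p = 0.000512) at 4 Gy, and both calls held in all 9 alternatives and all 16 fits that left out 1 library. It was lower at 8 Gy than at 4 Gy (log2 fold change -0.61 ± 0.12, adjusted p = 0.00273), a call that held in the same fits.

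Bax, which permeabilizes the mitochondrial outer membrane (mm10, chromosome 7, 45461697 to 45466898, minus strand), had 58.5 and 46.4 CPM (anti-PD-1) and 66.9, 51.99 and 77.4 CPM (IgG) at 0 Gy, 123, 133 and 162 CPM (anti-PD-1) and 72.6 and 74.5 CPM (IgG) at 4 Gy, and 65.3, 73.05 and 71.4 CPM (anti-PD-1) and 80.9, 70.8 and 61.8 CPM (IgG) at 8 Gy. The 3 anti-PD-1 libraries at 4 Gy stood above all others, and the IgG libraries at 4 Gy lay within the range at 0 Gy. The difference was 0.79 ± 0.13 (adjusted p = 0.0054) at 4 Gy against 0 Gy, 0.27 ± 0.12 (adjusted p = 0.121) at 8 Gy against 0 Gy and -0.52 ± 0.12 (adjusted p = 0.0061) at 8 Gy against 4 Gy. Without the 2 outlying libraries the first was 0.71 (adjusted p = 0.0598) and the last -0.43 (adjusted p = 0.066). Bbc3, the BH3-only protein Puma (mm10, chromosome 7, 16308393 to 16318205, plus strand), had 7.62 and 8.44 CPM (anti-PD-1) and 11.7, 6.49 and 13.6 CPM (IgG) at 0 Gy, 23.1, 28.7 and 23.7 CPM (anti-PD-1) and 10.6 and 9.57 CPM (IgG) at 4 Gy, and 9.40, 11.2 and 10.5 CPM (anti-PD-1) and 12.9, 9.57 and 7.01 CPM (IgG) at 8 Gy. It showed the same order, with anti-PD-1 at 4 Gy above the rest and IgG at 4 Gy within the range at 0 Gy. The difference was 0.79 ± 0.20 (adjusted p = 0.0223) at 4 Gy against 0 Gy and -0.66 ± 0.19 (adjusted p = 0.016) at 8 Gy against 4 Gy. The first ended in the additive model (0.81, adjusted p = 0.0695), with the compared groups alone (0.79, adjusted p = 0.0695), without the 2 outlying libraries (0.73, adjusted p = 0.152) and without anti-PD-1 0 Gy replicate 1 or 2 or IgG 4 Gy replicate 1 or 2, with adjusted p up to 0.152. The second ended without the 2 outlying libraries (-0.60, adjusted p = 0.113) and without IgG 4 Gy replicate 1, with adjusted p up to 0.113. Bax shares 192 exonic bases with the annotated gene Gm45808 on the same strand, so reads there are uncertain.

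Aen, an exonuclease that promotes apoptosis (mm10, chromosome 7, 78895854 to 78911209, plus strand), had 27.8 and 24.8 CPM (anti-PD-1) and 34.5, 21.97 and 45.9 CPM (IgG) at 0 Gy, 59.6, 70.3 and 79.8 CPM (anti-PD-1) and 43.6 and 38.6 CPM (IgG) at 4 Gy, and 38.9, 45.3 and 40.4 CPM (anti-PD-1) and 41.2, 44.4 and 39.3 CPM (IgG) at 8 Gy. The anti-PD-1 libraries at 4 Gy were again highest, and IgG 0 Gy replicate 3 stood above all 8 Gy libraries. Its rise was 0.85 ± 0.16 (adjusted p = 0.0111) at 4 Gy and 0.50 ± 0.15 (adjusted p = 0.0341) at 8 Gy. The call at 4 Gy ended without the 2 outlying libraries (0.75, adjusted p = 0.0989), with the compared groups alone (0.85, adjusted p = 0.0587) and without IgG 4 Gy replicate 2. The call at 8 Gy ended in the additive model (0.45, adjusted p = 0.127), with the compared groups alone (0.50, adjusted p = 0.0564) and without IgG 0 Gy replicate 1, either anti-PD-1 0 Gy library, any IgG 8 Gy library, or anti-PD-1 8 Gy replicate 1 or 2, with adjusted p up to 0.127. Pmaip1, the BH3-only protein Noxa, had 30.7 and 69.1 CPM (anti-PD-1) and 26.6, 53.7 and 22.8 CPM (IgG) at 0 Gy, 26.3, 19.8 and 16.3 CPM (anti-PD-1) and 35.01 and 34.5 CPM (IgG) at 4 Gy, and 56.9, 39.6 and 40.7 CPM (anti-PD-1) and 40.3, 48.9 and 49.7 CPM (IgG) at 8 Gy. The 8 Gy libraries lay above all those at 4 Gy, and libraries at 0 Gy spanned both. It stood 0.76 ± 0.24 (adjusted p = 0.0253) at 8 Gy against 4 Gy, a call lost without the 2 outlying libraries (0.58, adjusted p = 0.21) and without IgG 4 Gy replicate 1 or 2, anti-PD-1 4 Gy replicate 3, IgG 8 Gy replicate 2 or 3, or anti-PD-1 8 Gy replicate 1. Apaf1, the scaffold of the apoptosome, had 31.8 and 43.8 CPM (anti-PD-1) and 30.8, 38.6 and 39.3 CPM (IgG) at 0 Gy, 37.2, 24.7 and 23.3 CPM (anti-PD-1) and 33.98 and 29.8 CPM (IgG) at 4 Gy, and 46.3, 42.3 and 35.7 CPM (anti-PD-1) and 40.5, 48.6 and 47.2 CPM (IgG) at 8 Gy. Both outlying libraries were its lowest values. It stood 0.53 ± 0.14 (adjusted p = 0.0116) at 8 Gy against 4 Gy, and without those libraries at 0.32 (adjusted p = 0.155). Leaving out IgG 4 Gy replicate 2 also ended that call.

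Cdip1, which links p53 to death receptor signalling, had 44.7 and 59 CPM (anti-PD-1) and 38.6, 40.1 and 43.7 CPM (IgG) at 0 Gy, 44.8, 35.3 and 40.6 CPM (anti-PD-1) and 38.1 and 34.03 CPM (IgG) at 4 Gy, and 29.2, 32.7 and 34 CPM (anti-PD-1) and 29.3, 31.1 and 27.7 CPM (IgG) at 8 Gy. Each 8 Gy library lay below each library at 0 Gy and at 4 Gy, the last by a narrow margin. Its fall was -0.57 ± 0.10 (adjusted p = 0.00202) at 8 Gy against 0 Gy, and -0.31 ± 0.10 (adjusted p = 0.0297) at 8 Gy against 4 Gy. The second call ended with no filter on low values (-0.31, adjusted p = 0.0534) and without IgG 4 Gy replicate 1 or 2, anti-PD-1 4 Gy replicate 3, IgG 8 Gy replicate 3 or anti-PD-1 8 Gy replicate 1, with adjusted p up to 0.116. Perp, a membrane protein of desmosomes, had 20.5 and 28.4 CPM (anti-PD-1) and 17.2, 18.8 and 13.96 CPM (IgG) at 0 Gy, 18.3, 15.1 and 14.1 CPM (anti-PD-1) and 19.9 and 17.2 CPM (IgG) at 4 Gy, and 13.99, 12.5 and 16.4 CPM (anti-PD-1) and 10.97, 12.1 and 13.2 CPM (IgG) at 8 Gy. The 8 Gy libraries were mostly below the others, but IgG 0 Gy replicate 3 and some 4 Gy libraries overlapped them. It fell by 0.59 ± 0.13 on the log2 scale at 8 Gy against 0 Gy (adjusted p = 0.00657), and that call held in all 9 alternatives and 16 fits that left out 1 library. At 8 Gy against 4 Gy it stood -0.37 ± 0.13 (adjusted p = 0.0396), a call lost in the additive model (-0.33, adjusted p = 0.109), with no filter on low values (-0.37, adjusted p = 0.0652), without the 2 outlying libraries (-0.48, adjusted p = 0.063) and in 9 of 16 fits that left out 1 library. The 9 fits left out IgG 0 Gy replicate 1, either IgG 4 Gy library, anti-PD-1 4 Gy replicate 1 or 2, or replicate 1 or 2 of either antibody at 8 Gy, and the adjusted p reached 0.142. Cdip1 shares 892 exonic bases with Hmox2 on the other strand. Without strand, reads of such a pair cannot be told apart. Ei24, a protein of the endoplasmic reticulum, lay between 43.0 and 86.7 CPM and did not pass the test.

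Tp53i11 had no row under that symbol. The table lists Trp53i11, for which RefSeq gives that symbol as a synonym, at 14.2 and 14.9 CPM (anti-PD-1) and 22.1, 14.9 and 41.8 CPM (IgG) at 0 Gy, 28.9, 28.2 and 30.7 CPM (anti-PD-1) and 21.9 and 30.5 CPM (IgG) at 4 Gy, and 16.9, 20.8 and 15.9 CPM (anti-PD-1) and 21.7, 32.1 and 19.4 CPM (IgG) at 8 Gy. IgG 0 Gy replicate 3 was the highest of all, and the doses overlapped. It stood at 0.54 ± 0.23 (adjusted p = 0.0986) at 4 Gy and 0.13 ± 0.22 (adjusted p = 0.699) at 8 Gy and is not counted among the 34.

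**Figure D2:**
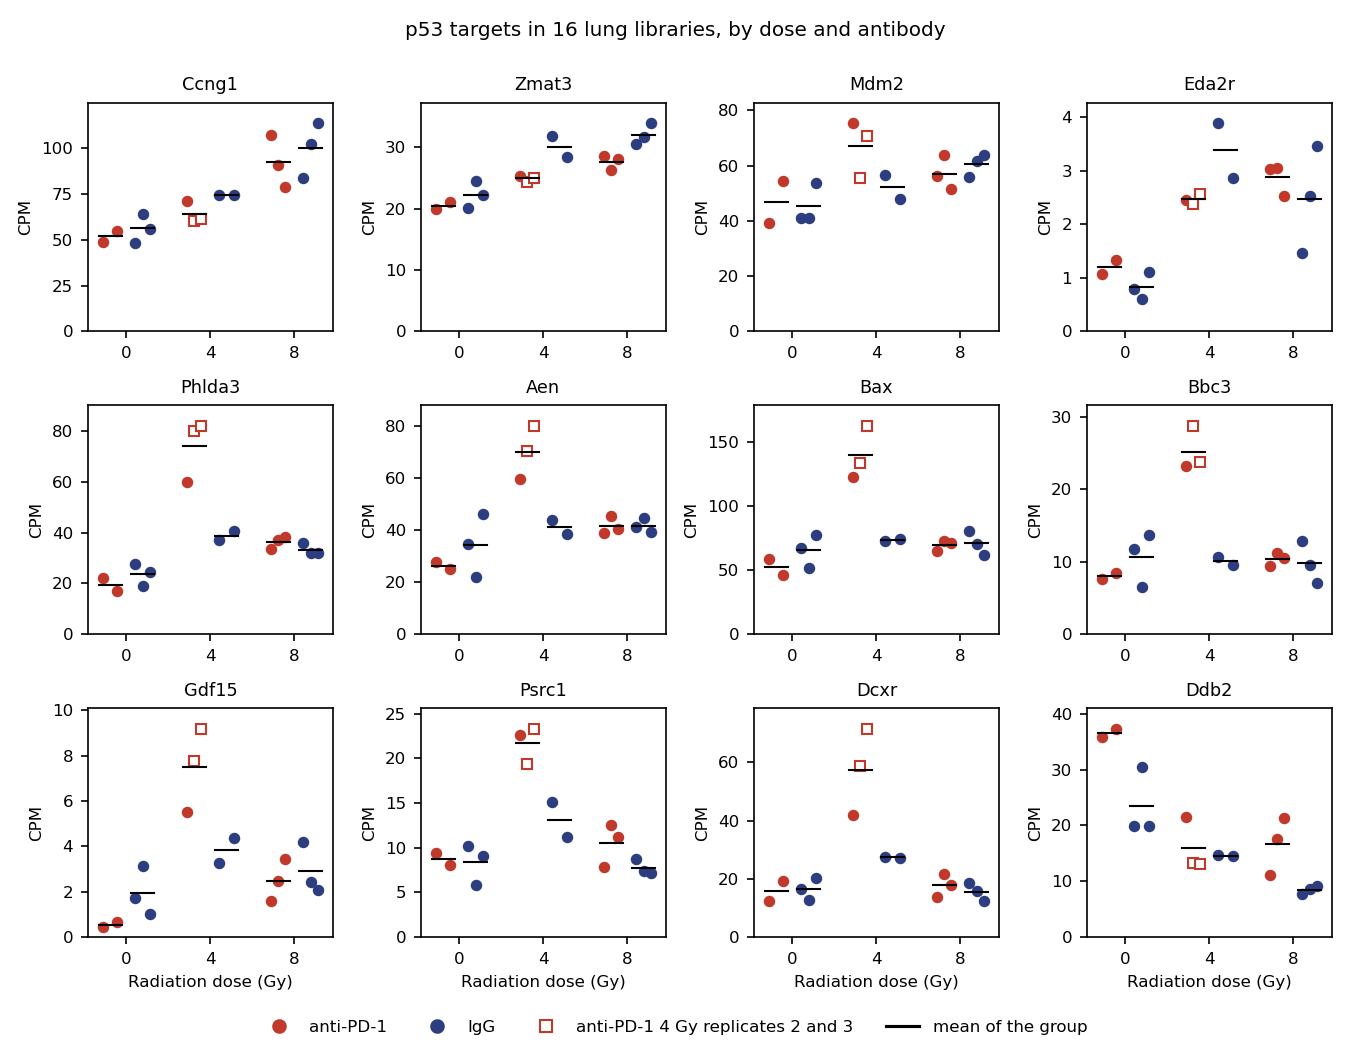
CPM (y axis, from 0) of 12 members in each library against the radiation dose in Gy (x axis), with anti-PD-1 in red, IgG in blue, open squares for the 2 outlying libraries and bars for group means. Ccng1 is highest at 8 Gy, Eda2r is raised at both doses, and Phlda3, Bax, Bbc3, Gdf15 and Dcxr peak in the anti-PD-1 libraries at 4 Gy, where Bax reaches 162 CPM.

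In the branch of metabolism and stress, Gdf15, Dcxr and Ephx1 rose at 4 Gy, Gdf15 alone rose at 8 Gy, and none of the 8 members fell against 0 Gy. Gdf15, a cytokine released by stressed cells that acts on appetite through the hindbrain, had 0.434 and 0.665 CPM (anti-PD-1) and 1.71, 3.14 and 1.03 CPM (IgG) at 0 Gy, 5.53, 7.78 and 9.17 CPM (anti-PD-1) and 3.27 and 4.37 CPM (IgG) at 4 Gy, and 1.59, 2.45 and 3.43 CPM (anti-PD-1) and 4.18, 2.41 and 2.09 CPM (IgG) at 8 Gy. All 4 Gy libraries lay above all 0 Gy libraries, where the anti-PD-1 libraries were lowest, and 8 Gy overlapped both. The mean was 2.69 ± 0.948 CPM at 8 Gy (SD, n = 6) against 1.40 ± 1.09 CPM at 0 Gy (n = 5), and at 4 Gy it was 6.02 ± 2.42 CPM (n = 5). The rise was 1.90 ± 0.27 (adjusted p = 0.00328) at 4 Gy and 0.99 ± 0.25 (adjusted p = 0.0148) at 8 Gy. The call at 8 Gy ended in the additive model and without anti-PD-1 0 Gy replicate 1, with adjusted p up to 0.0852, and that at 4 Gy held without the 2 outlying libraries (1.71, adjusted p = 0.0461). At 8 Gy against 4 Gy it stood -0.91 ± 0.25 (adjusted p = 0.0148), a call lost without the 2 outlying libraries (-0.72, adjusted p = 0.146), without IgG 4 Gy replicate 2 and under quantile normalization.

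Dcxr, a reductase of sugars and dicarbonyls (mm10, chromosome 11, 120725399 to 120727281, minus strand), had 12.3 and 19.2 CPM (anti-PD-1) and 16.4, 12.6 and 20.3 CPM (IgG) at 0 Gy, 42.01, 58.8 and 71.4 CPM (anti-PD-1) and 27.5 and 27.3 CPM (IgG) at 4 Gy, and 13.6, 21.8 and 17.8 CPM (anti-PD-1) and 18.5, 15.7 and 12.5 CPM (IgG) at 8 Gy. Every 4 Gy library stood above every library at 0 Gy and at 8 Gy. It rose by 1.29 ± 0.19 at 4 Gy against 0 Gy (adjusted p = 0.00406) and stood -1.24 ± 0.18 (adjusted p = 0.000606) at 8 Gy against 4 Gy, but 0.05 ± 0.18 (adjusted p = 0.862) at 8 Gy against 0 Gy. Without the 2 outlying libraries the value at 4 Gy was 1.08 (adjusted p = 0.0537), and the difference between the doses remained past the threshold at -1.03 (adjusted p = 0.0128). Ephx1, an epoxide hydrolase that detoxifies xenobiotics, had 153 and 112 CPM (anti-PD-1) and 139, 128 and 108 CPM (IgG) at 0 Gy, 196, 238 and 297 CPM (anti-PD-1) and 171 and 145 CPM (IgG) at 4 Gy, and 111, 161 and 170.0 CPM (anti-PD-1) and 99.2, 90.2 and 84.6 CPM (IgG) at 8 Gy. Its highest values were the 3 anti-PD-1 libraries at 4 Gy and its lowest the 3 IgG libraries at 8 Gy. The difference was 0.61 ± 0.15 (adjusted p = 0.0225) at 4 Gy against 0 Gy and -0.76 ± 0.14 (adjusted p = 0.00206) at 8 Gy against 4 Gy. The first ended with the compared groups alone (0.61, adjusted p = 0.0678), without the 2 outlying libraries (0.46, adjusted p = 0.182), and without anti-PD-1 0 Gy replicate 2, IgG 4 Gy replicate 1 or 2, or anti-PD-1 4 Gy replicate 3. The second held in all 9 alternatives and all 16 fits that left out 1 library. Ephx1 shares 72 exonic bases with Gm36961 on the same strand.

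The other 5 members of that branch passed the test in none of the dose comparisons over both antibodies. Sesn2, which restrains the growth kinase complex of mTOR, came closest, at 0.38 ± 0.13 (adjusted p = 0.0517) at 4 Gy and 0.34 ± 0.12 (adjusted p = 0.0619) at 8 Gy, with 21.1 to 40.5 CPM over the 16 libraries. Its relative Sesn1 lay between 15.6 and 33.6 CPM, with -0.33 ± 0.18 (adjusted p = 0.201) at 8 Gy. Trp53inp1, which promotes autophagy and p53 activity, had 29.3 and 58.8 CPM (anti-PD-1) and 17.3, 34.05 and 23.3 CPM (IgG) at 0 Gy, 24.5, 11.1 and 8.97 CPM (anti-PD-1) and 29.6 and 20.4 CPM (IgG) at 4 Gy, and 35.9, 28.8 and 25.7 CPM (anti-PD-1) and 22.4, 30.2 and 37.8 CPM (IgG) at 8 Gy. Its values within a dose were spread widely, with the 2 outlying libraries lowest, and it stood at -0.77 ± 0.29 (adjusted p = 0.0691) at 4 Gy. Tigar, a phosphatase that lowers glycolysis, lay between 19.9 and 27.7 CPM. Ddit4l, a further inhibitor of mTOR, lay between 1.38 and 4.51 CPM.

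Of the 4 members of DNA repair and nucleotide supply, none rose at either dose against 0 Gy. Ddb2 fell at both doses and Xpc at 4 Gy. Ddb2, which recognizes ultraviolet lesions for excision repair and is established as a p53 target in human cells (mm10, chromosome 2, 91211572 to 91236982, minus strand), had 35.8 and 37.3 CPM (anti-PD-1) and 19.96, 30.5 and 19.9 CPM (IgG) at 0 Gy, 21.5, 13.3 and 13.1 CPM (anti-PD-1) and 14.7 and 14.5 CPM (IgG) at 4 Gy, and 11.1, 17.6 and 21.4 CPM (anti-PD-1) and 7.67, 8.53 and 9.16 CPM (IgG) at 8 Gy. The lowest values were the 3 IgG libraries at 8 Gy and the highest the 2 anti-PD-1 libraries at 0 Gy. Each irradiated group lay below the group with the same antibody at 0 Gy, although the doses overlapped across antibodies. Its fall was -1.28 ± 0.18 (adjusted p = 0.000694) at 8 Gy and -0.92 ± 0.19 (adjusted p = 0.0135) at 4 Gy. The call at 8 Gy held in all 9 alternatives and 16 fits that left out 1 library, whereas that at 4 Gy ended without the 2 outlying libraries (-0.70, adjusted p = 0.127), with the compared groups alone (-0.92, adjusted p = 0.0511) and without IgG 4 Gy replicate 2. Ddb2 shares 652 exonic bases with Acp2 on the other strand.

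Xpc, the partner of Ddb2 in recognizing lesions, had 39.6 and 34.1 CPM (anti-PD-1) and 37.8, 37.6 and 31 CPM (IgG) at 0 Gy, 30.4, 23.7 and 21.4 CPM (anti-PD-1) and 29.2 and 25.9 CPM (IgG) at 4 Gy, and 30.2, 27.98 and 36.5 CPM (anti-PD-1) and 28.3, 30.3 and 24.3 CPM (IgG) at 8 Gy. All 4 Gy libraries lay below all 0 Gy libraries, and 8 Gy overlapped both. Its fall at 4 Gy was -0.45 ± 0.12 (adjusted p = 0.0294), a call lost without the 2 outlying libraries (-0.31, adjusted p = 0.233), under quantile normalization and equal medians, with the compared groups alone, and in 8 of 16 fits that left out 1 library. Those fits left out IgG 0 Gy replicate 1 or 2, either library of anti-PD-1 0 Gy or IgG 4 Gy, or either outlying library. Their adjusted p reached 0.129. Rrm2b, the p53-induced subunit of ribonucleotide reductase, had 6.60 and 8.22 CPM (anti-PD-1) and 7.12, 9.02 and 9.13 CPM (IgG) at 0 Gy, 7.17, 5.98 and 4.24 CPM (anti-PD-1) and 7.03 and 7.25 CPM (IgG) at 4 Gy, and 10.3, 8.99 and 7.80 CPM (anti-PD-1) and 7.32, 10.8 and 10.1 CPM (IgG) at 8 Gy. The 8 Gy libraries lay above all 4 Gy libraries, and 0 Gy overlapped both. It stood 0.49 ± 0.16 (adjusted p = 0.0291) at 8 Gy against 4 Gy, and without the 2 outlying libraries at 0.33 (adjusted p = 0.212). That call was also lost in 7 of 16 fits, without IgG 4 Gy replicate 1 or 2, anti-PD-1 4 Gy replicate 3, IgG 8 Gy replicate 2 or 3, or anti-PD-1 8 Gy replicate 1 or 2. It shares 734 exonic bases with the antisense gene Gm49085. Polk, a polymerase that copies past lesions, lay between 7.66 and 20.3 CPM and did not pass the test.

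**Figure D3:**
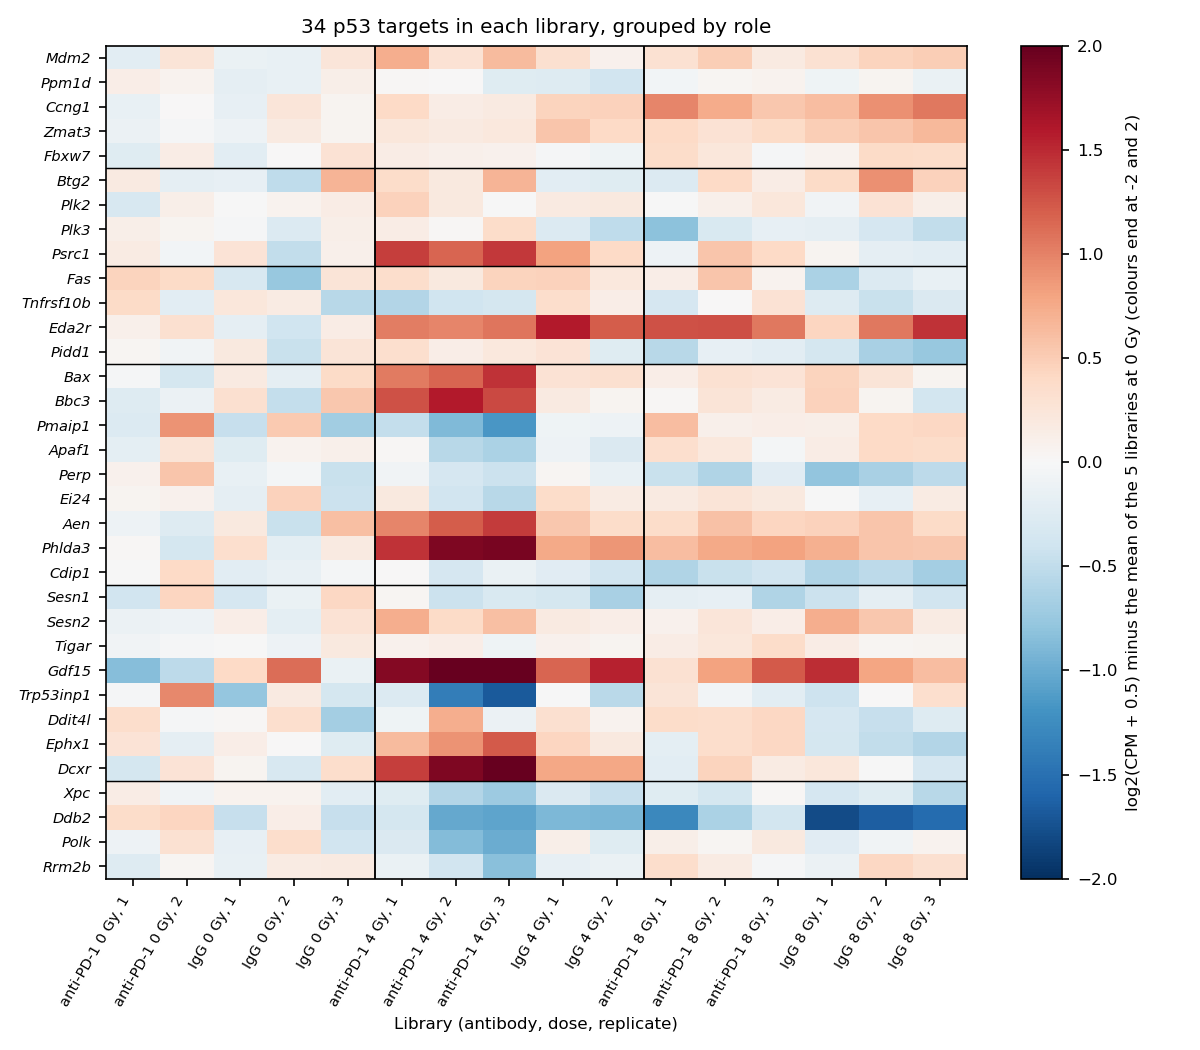
Log2(CPM + 0.5) of the 34 members (rows, by role) in the 16 libraries (columns, by dose and antibody) minus the mean of the 5 libraries at 0 Gy, from blue (lower) to red (higher), with colours ending at -2 and 2. Gdf15, Phlda3 and Dcxr are darkest red in anti-PD-1 4 Gy replicates 2 and 3, where Trp53inp1 is blue, and Ddb2 is darkest blue with IgG at 8 Gy.

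Markers of epithelial and endothelial lung cells moved with the 4 Gy libraries and are given beside the members for that reason. Fibroblast markers did not rise with them. Of these 5, 2 were lower and 0 higher at 4 Gy, and 2 lower and 0 higher at 8 Gy, both against 0 Gy. At 4 Gy against 0 Gy, 4 of 8 club cell, 7 of 8 alveolar type 2 and 3 of 6 alveolar type 1 markers were higher. So were 3 of 6 ciliated and 4 of 6 endothelial markers (5.33% of all genes), and none was lower (12.2%). Without the 2 outlying libraries, 1 anti-PD-1 library is left at 4 Gy, so whether these rises hold without them was not settled. At 8 Gy against 4 Gy all 34 markers of these 5 lists were lower (17.2% of all genes). Summed club cell markers ran from 1282 to 5949.6 CPM at 0 Gy, from 6249.7 to 22137 CPM at 4 Gy and from 882 to 6252 CPM at 8 Gy, and the alveolar type 2 sum from 1099 to 5512, from 5808 to 14158 and from 1606 to 3041 CPM. The alveolar type 1 sum lay at 138 to 436, 599.6 to 966 and 97.5 to 336 CPM, the ciliated sum at 18.6 to 85.1, 62.4 to 267 and 9.68 to 72.0 CPM, and the endothelial sum at 146 to 430, 355 to 669 and 142 to 274 CPM. Members that passed in any of the 3 dose comparisons differed in the dose of their highest mean. It was 4 Gy for Dcxr, Ephx1, Psrc1, Bax, Bbc3, Phlda3, Aen, Gdf15, Mdm2, Eda2r and Pidd1. For Ccng1, Zmat3, Pmaip1, Apaf1 and Rrm2b it was 8 Gy, and for Plk3, Perp, Cdip1, Xpc and Ddb2 it was 0 Gy. At 8 Gy against 0 Gy, 4 of 6 alveolar type 1 and 4 of 6 ciliated markers were lower (16.1% of all genes). Of club cell markers 1 of 8 was lower, of alveolar type 2 markers 1 of 8 and of endothelial markers 1 of 6. Members that fell there were Ddb2, Cdip1, Perp and Plk3. Higher (4.68% of all genes) were 4 of 6 monocyte and macrophage markers and 5 of 5 red blood cell markers. So were 9 of 13 mitochondrially encoded genes. At 4 Gy against 0 Gy 8 of 13 mitochondrially encoded genes were higher as well (5.33% of all genes). Whether those rises hold without the 2 outlying libraries was not settled either. The mitochondrial sum lay at 8901 to 31864 CPM at 0 Gy. At 4 Gy it lay above every library at 0 Gy, at 37122 to 58256 CPM. At 8 Gy it ran from 15108 to 73948 CPM. At 4 Gy that sum was lowest in the 2 outlying libraries, at 39166 and 37122 CPM, against 43822 to 58256 CPM in the others. The part of all these lists in the results was not tested. No marker of these lists was without reads in any library, the lowest being Ccdc39 of ciliated cells at 0.149 CPM.

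**Figure D4:**
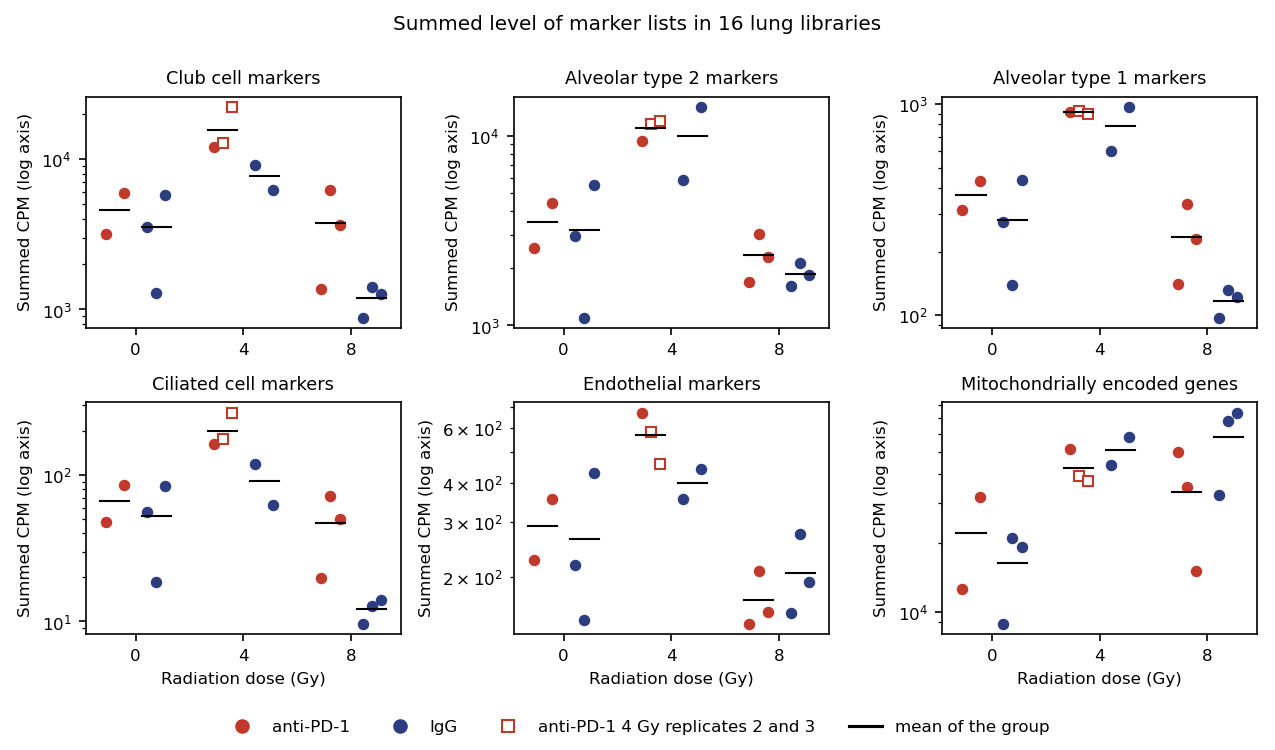
Summed CPM (y axis, log scale) of 5 lists of lung cell markers and of the mitochondrially encoded genes in each library against the radiation dose in Gy (x axis), with anti-PD-1 in red, IgG in blue, open squares for the 2 outlying libraries and bars for group means. Within either antibody the group means of the 5 marker sums are highest at 4 Gy, where club cell markers reach 22137 CPM.

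The response to each dose was then read within each antibody. At 8 Gy with anti-PD-1, 2 members were higher (0.957% of all genes) and 2 lower (1.88%), with Ccng1 at 0.82 ± 0.17 (adjusted p = 0.0202) and Phlda3 at 0.89 ± 0.18 (adjusted p = 0.02) higher, and Cdip1 and Ddb2 lower. With IgG 3 members were higher (1.44% of all genes) and 2 lower (9.12%): Ccng1 at 0.82 ± 0.15 (adjusted p = 0.00661), Eda2r at 1.12 ± 0.24 (adjusted p = 0.0141) and Zmat3 at 0.52 ± 0.11 (adjusted p = 0.0144) were higher, and Ddb2 and Cdip1 lower. Ccng1 thus had the same estimate with either antibody. For 8 Gy against 0 Gy the difference between the antibodies passed in 0 members (0% of all genes), and also 0 members had an unadjusted p under 0.05 in limma. The anti-PD-1 count of 4 in all was 0 without anti-PD-1 0 Gy replicate 2 or anti-PD-1 8 Gy replicate 1 or 2. Leaving out anti-PD-1 0 Gy replicate 1 gave 2, and leaving out IgG 0 Gy replicate 2 or 3 gave 7. The IgG count of 5 was 2 without IgG 0 Gy replicate 1 or IgG 8 Gy replicate 2 or 3.

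At 4 Gy with anti-PD-1, 17 members passed, 11 higher (13.4% of all genes) and 6 lower (25.9%). Gdf15 stood at 2.91 ± 0.38 (adjusted p = 0.00216), Phlda3 at 1.89 ± 0.18 (adjusted p = 0.000449), Dcxr at 1.83 ± 0.27 (adjusted p = 0.00299), Bbc3 at 1.58 ± 0.28 (adjusted p = 0.00404), Bax at 1.40 ± 0.18 (adjusted p = 0.00216) and Aen at 1.38 ± 0.23 (adjusted p = 0.00383). The 6 lower were Trp53inp1 at -1.58 ± 0.40 (adjusted p = 0.00992), Ddb2, Pmaip1, Polk, Perp and Xpc. The 6 lower are not above the background. Only 1 member passed without the 2 outlying libraries, a fit that leaves 1 library in the group, which is assumed to vary like the other groups. Leaving out anti-PD-1 0 Gy replicate 2 gave 8, and leaving out anti-PD-1 4 Gy replicate 3 gave 11. With IgG 0 members passed (0.00570% of all genes), with 9 at an unadjusted p under 0.05 in limma. Eda2r was then at 1.54 ± 0.27 (adjusted p = 0.0694), Gdf15 at 0.89 ± 0.38 (adjusted p = 0.395), Phlda3 at 0.72 ± 0.18 (adjusted p = 0.194) and Bax at 0.19 ± 0.18 (adjusted p = 0.722). Leaving out IgG 0 Gy replicate 3 gave 1. Cdkn1a was the single gene of the table that passed there, at 1.50 ± 0.19 (adjusted p = 0.0213).

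The difference of the 4 Gy responses, with anti-PD-1 minus with IgG, was above 0 in 4 members (3.76% of all genes) and below 0 in none (5.32%): Gdf15 at 2.02 ± 0.53 (adjusted p = 0.0435), Bbc3 at 1.60 ± 0.39 (adjusted p = 0.0398), Bax at 1.22 ± 0.25 (adjusted p = 0.0388) and Phlda3 at 1.18 ± 0.26 (adjusted p = 0.0394). No member passed without the 2 outlying libraries, and none without IgG 0 Gy replicate 1 or 3, either anti-PD-1 0 Gy library, either IgG 4 Gy library, anti-PD-1 4 Gy replicate 2 or 3, IgG 8 Gy replicate 2 or any anti-PD-1 8 Gy library. Leaving out IgG 0 Gy replicate 2 gave 12, and leaving out anti-PD-1 4 Gy replicate 1 gave 9. The shares of all genes in these 2 fits are not given here. For 8 Gy against 4 Gy this difference passed in 0 members (0% of all genes). It passed in 4 without IgG 0 Gy replicate 2 or 3, and in 5 without anti-PD-1 4 Gy replicate 1. An unadjusted p under 0.05 in limma was seen in 12, but the share of all genes at that cut is not given here.

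**Figure D5:**
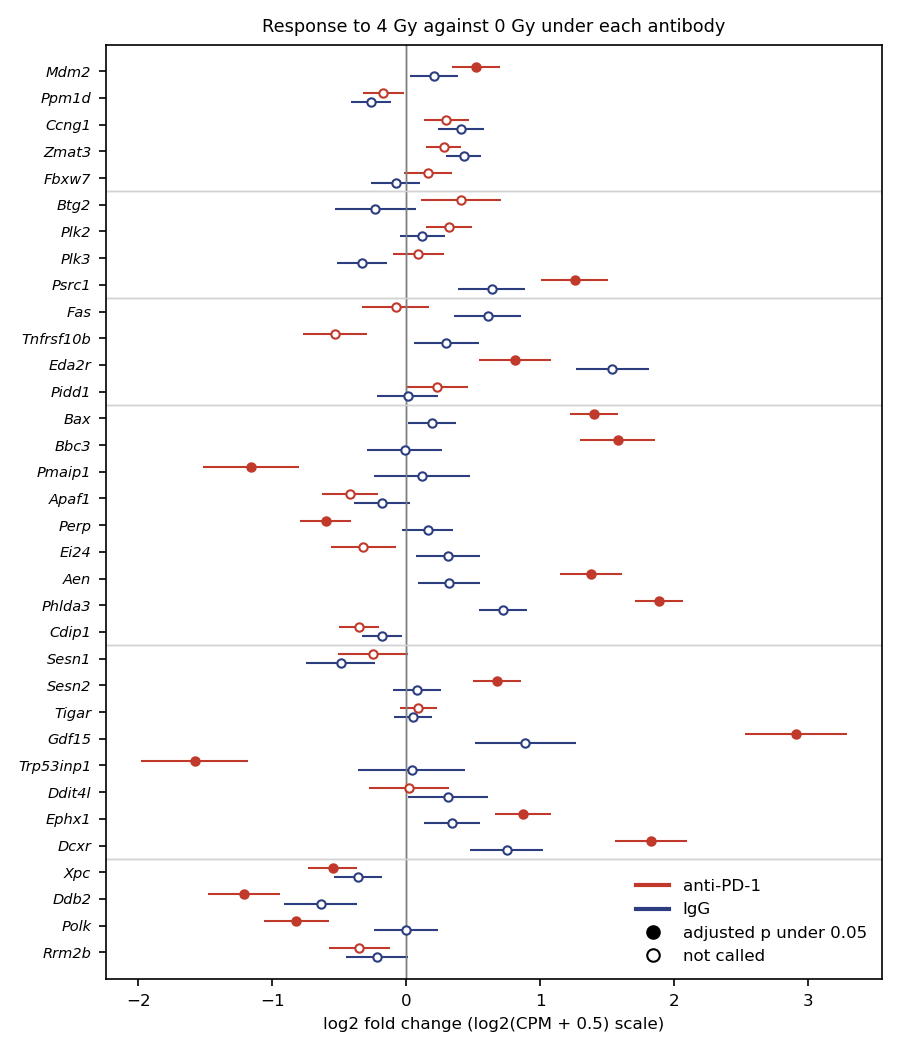
Log2 fold change of 4 Gy against 0 Gy (x axis, log2(CPM + 0.5) scale) of the 34 members (y axis, by role) with anti-PD-1 (red) and with IgG (blue), with bars of 1 SE and filled points where the adjusted p was under 0.05. Gdf15 lies at 2.91 with anti-PD-1 and 0.89 with IgG, Eda2r at 0.81 with anti-PD-1 and 1.54 with IgG.

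Setting anti-PD-1 against IgG at the same dose, 5 members were higher with anti-PD-1 at 4 Gy (6.90% of all genes) and none was lower (8.57%): Bbc3 at 1.27 ± 0.28 (adjusted p = 0.0312), Dcxr at 1.02 ± 0.27 (adjusted p = 0.0355), Bax at 0.91 ± 0.18 (adjusted p = 0.03), Phlda3 at 0.91 ± 0.18 (adjusted p = 0.03) and Aen at 0.75 ± 0.23 (adjusted p = 0.0434). Summed club cell markers were 12084 to 22137 CPM in these anti-PD-1 libraries and 6249.7 to 9052 CPM in these IgG libraries, and their part in the difference was not tested. None passed without the 2 outlying libraries, without either of them alone or without either IgG 4 Gy library, while leaving out anti-PD-1 4 Gy replicate 1 gave 9, and leaving out IgG 0 Gy replicate 2 gave 8. At 0 Gy 0 members passed (0.274% of all genes), with 5 at an unadjusted p under 0.05 in limma. At 8 Gy also 0 passed (0.00570%), with 4 at an unadjusted p under 0.05, and over all doses 0 (0.234%), with 9. Leaving out anti-PD-1 8 Gy replicate 1 gave 1 at 8 Gy and 2 over all doses, and leaving out IgG 0 Gy replicate 3 or anti-PD-1 4 Gy replicate 1 gave 1 over all doses.

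Other genes of the pathway were read from lists of 19 regulators of p53, 21 further targets and 15 cell cycle genes that p21 keeps down. Trp53 itself had 42.5 and 36.9 CPM (anti-PD-1) and 54.4, 42.95 and 78.2 CPM (IgG) at 0 Gy, 63.7, 53.7 and 72.9 CPM (anti-PD-1) and 50.7 and 49.02 CPM (IgG) at 4 Gy, and 42.3, 56.01 and 38.2 CPM (anti-PD-1) and 64.6, 58.6 and 52.03 CPM (IgG) at 8 Gy. It overlapped between doses and stood at 0.11 ± 0.15 (adjusted p = 0.649) at 8 Gy and 0.24 ± 0.16 (adjusted p = 0.275) at 4 Gy. Of the regulators, none rose (4.68% of all genes) and 4 of 19 fell (16.1%) at 8 Gy, among them Trp53bp1, a scaffold at double-strand breaks (-0.46 ± 0.10, adjusted p = 0.00661), and Mdm4, which inhibits p53 beside Mdm2 (-0.58 ± 0.17, adjusted p = 0.0246). At 4 Gy none rose (5.33% of all genes) and 3 of 19 fell (12.2%), with the checkpoint kinase gene Chek2 at -0.54 ± 0.12 (adjusted p = 0.0154). These shares of falls are near the background, and with the 2 outlying libraries left out 0 regulators fell at 4 Gy. The median of the regulators was -0.05 at 8 Gy and -0.25 at 4 Gy. Of 19 further targets that were tested, 2 rose (4.68% of all genes) and 1 fell (16.1%) at 8 Gy, with the small GTPase gene Rap2b at 0.57 ± 0.10 (adjusted p = 0.00225), and 2 rose (5.33%) and 1 fell (12.2%) at 4 Gy, with the lipid transfer gene Pltp at 0.68 ± 0.15 (adjusted p = 0.0178). With the outlying libraries left out none of them had a call at 4 Gy. Their medians were 0.06 and 0.07, against medians of all genes at -0.09 and -0.14.

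None of the 15 cell cycle genes passed at 8 Gy in limma, where 3 had an unadjusted p under 0.05 and the median was 0.13. At 4 Gy 4 of them fell (12.2% of all genes), and 0 with the 2 outlying libraries left out, with the mitotic phosphatase gene Cdc25c at -0.66 ± 0.14 (adjusted p = 0.0135) and the proliferation marker Mki67 at -0.52 ± 0.12 (adjusted p = 0.0173), and the median was -0.27. At 8 Gy against 4 Gy 9 of 15 were higher (17% of all genes) and none lower (17.2%), and 5 were higher with the outlying libraries left out (2.57%), with the topoisomerase gene Top2a at 0.46 ± 0.09 (adjusted p = 0.00235) and a median of 0.38. Cdkn1a itself stood at -0.18 ± 0.13 (adjusted p = 0.262) at 8 Gy against 4 Gy.

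Levels of the members, compared per kilobase of exon, differed widely. The median over 16 libraries was 72.8 CPM per kilobase for Ephx1, 45.7 for Bax, 30.9 for Btg2, 22.3 for Phlda3 and 20.7 for Ccng1. At the low end, Gdf15 stood at 1.51, Ddit4l at 0.899, Rrm2b at 0.828 and Eda2r at 0.421. Members that changed thus lay at both ends, and for Gdf15, Ddit4l and Eda2r, at a few CPM, the pseudocount of 0.5 weighs more on the fold change than for the others.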

How the data were processed

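RNA was extracted from ground lungs with a column kit and made into TruSeq libraries from total RNA, per the labels' protocols. STAR and Partek on build mm10 are named per the submitters' processing notes. For versions, annotation and strand, nothing was found (not given in the sources used here). The deposited values are the authors' CPM per gene, a unit read from the column sums, and the lowest value in each library, 0.0001, was taken as no reads. The listed genes summed to 866773 to 915009 CPM per library. A floor of 3 reads came to 0.0465 to 0.1254 CPM, for counting error only. Only 57.6 to 63.4% of the values under 100 reads were whole within a tolerance of 0.02, so reads were not recovered and no count model was run.

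Groups came from the sample titles. Genes that reached 1 CPM in 2 libraries or more were kept. Their log2(CPM + 0.5) values entered 1 fit of 6 group means in limma 3.58.1, with a mean-variance trend and robust moderation (R 4.3.3, data.table release 1.17.8). Dose comparisons over both antibodies average the differences within each. Tables and plots were made in Python 3.11.15 (pandas 2.3.3, numpy 2.4.6, matplotlib 3.10.9). The procedure was tested on simulated data. Gene positions, exon lengths and overlaps come from GENCODE M21. Alternatives were quantile normalization, equal library medians, no filter, pseudocounts of 0.1 and 1, a replicate block, the compared groups only, an additive model, the fit without the 2 outlying libraries, and leaving out each library. Counts of the other gene lists without the 2 outlying libraries were added after seeing the data. The members and lists were chosen with earlier results of these data known. Values per library are given for members past the threshold in any of the 3 dose comparisons over both antibodies, with Mdm2 and Bax in any case. Values of Trp53inp1, Trp53i11 and Trp53 were added after they had been seen.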

Additional observations from a re-analysis of the deposited data

Results flagged for a closer look

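In 2 of 102 sets of libraries at 1 dose (34 members at 3 doses), 1 library lay far from the rest by Dixon's test, where chance alone flags about 1 in 20. Ddb2 stood at 21.5 CPM in anti-PD-1 4 Gy replicate 1, against 13.1 to 14.7 CPM in the other 4 libraries at 4 Gy. Tigar stood at 24.7 CPM in IgG 0 Gy replicate 3, against 19.9 to 21.2 CPM in the other 4 libraries at 0 Gy.

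The response to 4 Gy against 0 Gy differed between the antibodies in 4 members. With anti-PD-1 minus with IgG, it was larger by 2.02 ± 0.53 on the log2 scale for Gdf15 (limma, adjusted p = 0.0435), 1.60 ± 0.39 for Bbc3 (adjusted p = 0.0398), 1.22 ± 0.25 for Bax (adjusted p = 0.0388) and 1.18 ± 0.26 for Phlda3 (adjusted p = 0.0394). None of the 4 passed without the 2 outlying libraries.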

How the results depend on the processing

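The calls of Ccng1, Zmat3, Eda2r, Phlda3, Ddb2, Cdip1 and Perp at 8 Gy against 0 Gy, of Phlda3 and Gdf15 at 4 Gy against 0 Gy, and of Dcxr, Psrc1, Ephx1 and Phlda3 at 8 Gy against 4 Gy held in all 9 alternatives and all 16 fits that left out 1 library. No called member changed sign. The cause of the changes below was not tested. Without the 2 outlying libraries, members higher at 4 Gy numbered 2 and members lower 0, in place of 10 and 2. At 8 Gy against 4 Gy 0 were higher and 5 lower, in place of 4 and 10. With anti-PD-1 at 4 Gy against 0 Gy 1 passed in place of 17. The antibody comparison at 4 Gy and the difference of the 4 Gy responses each had 0, in place of 5 and 4. With the compared groups only, 4 Gy had 6 higher and 0 lower, 8 Gy against 0 Gy had 1 with IgG and 0 with anti-PD-1 in place of 5 and 4, the difference of the 4 Gy responses had 0, and that between 8 and 4 Gy had 6 in place of 0. The additive model gave 4 higher at 8 Gy in place of 7. Quantile normalization and equal medians each gave 1 lower at 4 Gy over both antibodies and 1 called at 4 Gy with IgG in place of 0, and quantile normalization gave 7 at 8 Gy with anti-PD-1. With no filter the difference of the 4 Gy responses had 2.

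Replicate numbers were not treated as pairs, since the labels do not say that they are shared between groups. Deviations of 36 same-numbered pairs correlated at -0.55 to 0.44 (median -0.10), 11 over 0.1. Those of 70 pairs with unlike numbers correlated at -0.44 to 0.59 (median 0.02), 26 over 0.1. As the numbers may not match between groups, neither these values nor the replicate block can settle pairing. With the replicate block, 1 member in place of 4 passed at 8 Gy with anti-PD-1, 0 in place of 5 between the antibodies at 4 Gy, and 0 in place of 4 for the difference of the 4 Gy responses. It also ended the rises of Aen (0.46, adjusted p = 0.0599) and Mdm2 (0.35, adjusted p = 0.0904) at 8 Gy and the difference of Perp between 8 and 4 Gy (-0.37, adjusted p = 0.0673).

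Leaving out 1 library gave 4 to 10 members higher and 3 to 5 lower at 8 Gy, 6 to 13 higher and 0 to 6 lower at 4 Gy, and 1 to 6 higher and 6 to 12 lower at 8 Gy against 4 Gy. At 8 Gy it gave 2 to 7 with IgG and 0 to 7 with anti-PD-1, at 4 Gy 0 to 1 with IgG and 8 to 18 with anti-PD-1. Comparisons of anti-PD-1 with IgG had 0 to 0 at 0 Gy, 0 to 9 at 4 Gy, 0 to 1 at 8 Gy and 0 to 2 over all doses. The difference of responses had 0 to 12 at 4 Gy, 0 to 0 at 8 Gy and 0 to 5 between 8 and 4 Gy.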
